A study of Mus musculus with 2 samples.

Results

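Endothelial cells of the mouse hippocampus were followed in a single-cell RNA count table of library 2 of the series. They were chosen by a fixed rule on their own RNA. A barcode was taken with at least 1000 unique molecular identifiers (UMIs, each standing for 1 captured RNA molecule), at least 500 genes and at most 10% of UMIs from mitochondrially encoded genes. The 8 endothelial genes Cldn5, Flt1, Pecam1, Ly6c1, Itm2a, Slco1a4, Cdh5 and Esam had to hold at least 0.8% of its UMIs. The 6 microglia genes P2ry12, Cx3cr1, Tmem119, Csf1r, Selplg and Gpr34 had to hold under 0.3%, and the 7 mural genes Vtn, Rgs5, Kcnj8, Abcc9, Acta2, Tagln and Myl9 less than the endothelial genes. Of the 2164 barcodes that passed the UMI, gene and mitochondrial limits in library 2, 182 were endothelial (8.41%, exact 95% interval 7.27 to 9.66), out of 18754 barcodes in the whole series. Of these, 40 cells had over 20000 UMIs and are called deep, and 142 are called other endothelial cells.

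The series holds 2 droplet (10x Genomics 3' version 3) libraries, each loaded with hippocampal cells pooled from 3 C57BL/6 mice, 10 weeks old, wild type and, per the series' design text, male. Suspensions came either from enzymatic digestion for 30 minutes at 37 °C or from mechanical dissociation at 4 °C, followed by a Percoll gradient that removes debris and myelin. The labels of neither library say which of these it had, so the libraries were put in no group and no comparison of dissociation was made. All 182 cells come from a single pool of animals, so the cells are not replicates. No test between conditions was possible. Intervals of levels and ratios cover counting error of UMIs only, and intervals of shares of cells treat cells as independent draws. Neither covers the spread between animals.

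Endothelial cells line blood vessels. In the brain most of them form the blood-brain barrier: tight junctions close the gaps between cells, vesicle traffic is kept low, and transporters carry glucose, amino acids and hormones in while efflux pumps carry foreign compounds out. Wnt and beta-catenin signalling maintains this state. Along the vessel tree arterial, capillary and venous endothelial cells differ in the genes they use, and veins are the usual site where leukocytes attach. Vessels that lack a barrier, such as those of the choroid plexus, carry diaphragmed pores built with Plvap.

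The 2 depth groups differed by a wide margin in RNA content. Deep cells held a median of 44579 UMIs (20758 to 109484) and 6627.5 genes, against 5888.5 UMIs (1010 to 19856) and 2449 genes in other endothelial cells. They were 22.0% of the cells (16.2 to 28.7) but gave 64.4% of the endothelial UMIs, 1915165 against 1058910. Endothelial cells made up 40 of the 69 barcodes over 20000 UMIs in library 2, whereas 2 were microglia and 1 was mural. The median mitochondrial share was 6.42% in deep and 7.07% in other cells. Near the limits, 12 cells with 20758 to 24692 UMIs fell just inside the deep group and 14 with 15218 to 19856 just outside it. On the endothelial limit, 8 cells lay at 0.804% to 0.897% of UMIs, and 7 barcodes at 0.715% to 0.785% stayed out. The microglia limit kept out 9 barcodes (0.326% to 1.61%) while the highest cell inside had 0.163%, and the mural limit kept out 2. The libraries share 19 barcodes, of which 2 belong to endothelial cells here. Levels below are sums of UMIs over the cells of a group in each 1000000 UMIs of that group (CPM), so deep cells weigh on a sum in proportion to their UMIs. A level from 3' tags does not depend on gene length in the way that whole-transcript levels do, and genes are compared between groups, not with each other.

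The endothelial label was checked first against its own markers, which the rule used and which are given as a description. Flt1, a VEGF receptor, was at 2628 CPM in deep and 3913 CPM in other cells and had a UMI in every one of the 182. Cldn5, the main claudin of brain tight junctions, was at 3289 CPM in deep and 4218 CPM in other cells. Slco1a4, an organic anion transporter of the barrier, was at 1843 and 2187 CPM in these groups, Ly6c1 at 2273 and 4250 CPM, and Itm2a at 2604 and 2866 CPM. Pecam1, an adhesion molecule between endothelial cells, was at 415 CPM in deep and 660 CPM in other cells. The 8 genes together were at 46.8 CPM in microglia and 1286 CPM in mural cells, which were taken by the mirrored rule (1521 and 97 cells).

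Genes that the rule did not use were described in the same way. A list of 30 pan-endothelial genes, among them the angiopoietin receptor Tek, the transcription factors Erg and Sox18 and the sialomucin Emcn, summed to 20162 CPM in deep and 23121 CPM in other cells, against 1634 CPM in microglia and 3543 CPM in mural cells. A gene was counted as higher or lower where it differed at least 2-fold on the scale log2(CPM + 1), among genes with at least 50 CPM in either group and at least 100 UMIs over both. By this measure 27 of the 29 measured list genes were higher in other endothelial cells than in microglia, where 23.3% of all 4429 genes were higher, and 27 of 29 were higher than in mural cells, where 20.3% of 2988 genes were. In deep cells 25 of 29 were higher than in microglia, beside 24.3% of all genes, and 25 of 29 than in mural cells, beside 20.9%. The list median was 7.66 (log2) over microglia and 3.39 over mural cells for other cells, while the medians of all genes were 0.16 and 0.05.

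Not every cell carried the markers of barrier endothelium. Plvap, which builds the diaphragms of endothelial pores and vesicles (chr8:71497765-71511752, minus strand, GRCm38), outnumbered Cldn5 (chr16:18776847-18778262, plus strand) in 31 of the 182 cells (17.0%, 11.9 to 23.3). This division was made after the values had been seen. The 2 genes were nearly exclusive: 29 of the 31 Plvap-led cells had no Cldn5 UMI, 147 of the 151 Cldn5-led cells had no Plvap UMI, and 6 cells held both. Per cell, Plvap ran from 873 over a median of 3227 to 7010 CPM in Plvap-led cells, and its median was 0 in Cldn5-led cells. Cldn5 ran from 431 over 5083 to 14674 CPM in Cldn5-led cells, and its median was 0 in Plvap-led cells. There were 3 Plvap-led cells among the 40 deep (7.5%) and 28 among the 142 other cells (19.7%). Markers of 3 other classes were low in both, and their part was not tested: the 13 further microglia genes were at 2279 CPM in Plvap-led and 1860 CPM in Cldn5-led cells, the 11 further mural genes at 264 and 348 CPM, and the 7 choroid plexus or ependymal genes, nearly all of it Ttr, at 1355 and 760 CPM. Haemoglobin RNA was uneven: Hbb-bs was at 103 CPM in Plvap-led and 2788 CPM in Cldn5-led cells, and 1 cell held 73.1% of its UMIs in deep cells. Prox1 and Lyve1, which mark lymphatic endothelium, had no UMI in Plvap-led cells, where 3 counts would be 9.66 CPM.

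**Figure D1:**
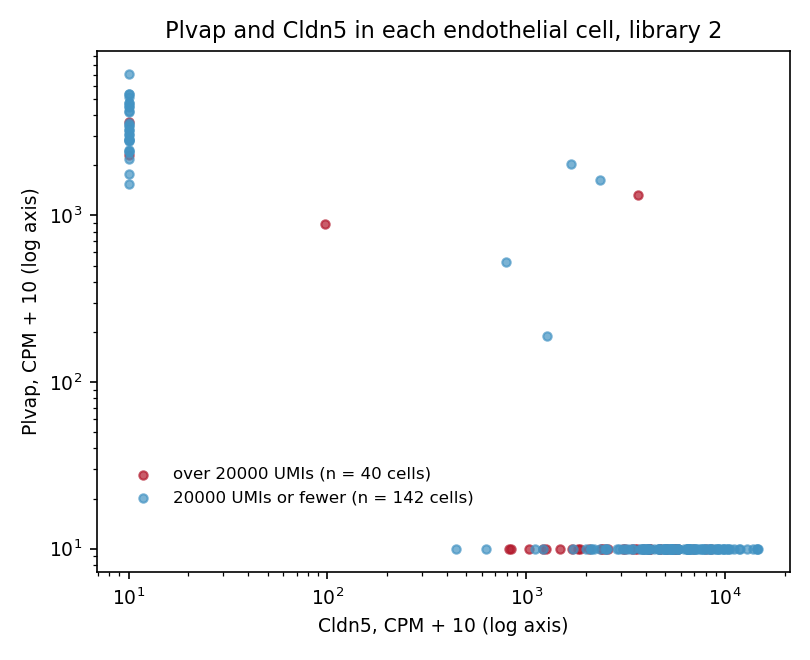
Plvap (y axis) against Cldn5 (x axis) in each of the 182 endothelial cells, in CPM plus 10 on log axes, with deep and other cells in different colours. Of the 31 Plvap-led cells 29 lie along the y axis with no Cldn5 UMI, 147 of the 151 Cldn5-led cells lie along the x axis with no Plvap UMI, and the 6 cells with both genes lie between.

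Plvap-led cells held pan-endothelial genes that the rule did not use but lacked most of the barrier set. Their pan-endothelial list summed to 29388 CPM, against 20262 CPM in Cldn5-led cells. Flt1 was at 4483 CPM in Plvap-led and 2922 CPM in Cldn5-led cells, Pecam1 at 940 and 451 CPM in these groups, and Cdh5, the cadherin of endothelial junctions, at 718 and 420 CPM. Esam, a junction adhesion molecule, was at 721 CPM in Plvap-led and 699 CPM in Cldn5-led cells. Flt1, Pecam1, Cdh5 and Esam are rule genes, so a cell without Cldn5 was taken only if others of the 8 were high. Their levels are therefore a description. The 8 genes held 0.812% to 1.52% of UMIs in Plvap-led cells, with a median of 1.04%, against a median of 2.15% in Cldn5-led cells. The number of Plvap-led cells thus depends on the 0.8% limit. Across all 3861 measured genes other than Plvap and Cldn5, 7.9% were at least 2-fold higher and 11.3% at least 2-fold lower in Plvap-led cells, with a median of 0.08 (log2). Of 29 measured barrier transporters and receptors, 2 were higher and 23 lower, with a median of -4.15, or -3.44 with the 6 genes at 0 set to 3 counts.

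The glucose transporter Slc2a1 ran from 0 over a median of 0 to 480 CPM per cell in Plvap-led cells and from 0 over 2531 to 12368 CPM in Cldn5-led cells. It had a UMI in 10 of 31 Plvap-led and 150 of 151 Cldn5-led cells. Summed, Slc2a1 was at 80.5 CPM in Plvap-led and 3346 CPM in Cldn5-led cells, a ratio of 0.0240 (0.0156 to 0.0355), and the per-cell ranges overlapped only below 480 CPM. Slco1a4 was at 86.9 CPM in Plvap-led and 2184 CPM in Cldn5-led cells. The thyroid hormone transporter Slco1c1 was at 6.44 and 564 CPM in these groups, and the transferrin receptor Tfrc at 6.44 and 245 CPM. Abcb1a, the efflux pump P-glycoprotein, was at 135 CPM in Plvap-led and 1444 CPM in Cldn5-led cells. No UMI was found in Plvap-led cells for the lipid transporter Mfsd2a, the arginine transporter Slc7a1, the glutamine transporter Slc38a3 or the flippase Atp10a, where 3 counts would be 9.66 CPM. In Cldn5-led cells these 4 genes were at 144, 367, 137 and 256 CPM. The efflux pump Abcg2 stayed within 2-fold, at 576 CPM in Plvap-led and 1074 CPM in Cldn5-led cells. The nucleoside transporter Slc29a1, at 135 against 27.0 CPM, and the insulin receptor Insr, at 344 against 161 CPM, were the 2 list members higher in Plvap-led cells.

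Junction genes were split. Ocln, the tight junction protein occludin, was at 19.3 CPM in Plvap-led and 267 CPM in Cldn5-led cells. Lsr, which seals the corners where 3 cells meet, was at 3.22 and 324 CPM in these groups, and the scaffold Tjp1 at 216 and 808 CPM. Higher in Plvap-led cells were the junction molecule Jam3, at 306 against 12.4 CPM, the plakoglobin gene Jup, at 605 against 72.8 CPM, and the connexin Gja1, at 206 against 25.5 CPM. Over the 15 measured junction genes 3 were higher and 4 lower, with a median of -0.09 (log2). Of all genes 7.9% were higher and 11.3% lower in Plvap-led cells.

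Of 20 measured genes of Wnt and beta-catenin signalling, 12 were lower and 4 higher in Plvap-led cells, beside 11.3% and 7.9% of all genes. The list median was -1.66 (log2). The lower ones included the transcription factor Lef1, at 25.7 CPM in Plvap-led and 575 CPM in Cldn5-led cells. The barrier transcription factor Foxq1 was at 12.9 and 445 CPM in these groups, and the pathway targets Axin2 at 3.22 and 102 CPM and Nkd1 at 3.22 and 131 CPM. The 4 higher ones were 3 parts of the receptor complex and a T-cell factor. The receptor Fzd4 was at 431 CPM in Plvap-led and 201 CPM in Cldn5-led cells, its partner Tspan12 at 241 and 64.6 CPM, the co-receptor Lrp5 at 138 and 51.1 CPM, and Tcf7l1 at 174 and 47.3 CPM.

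Several receptors of vascular growth factors and several matrix genes were higher in Plvap-led cells, while most members of either list did not pass the 2-fold limit. Kdr, the main VEGF receptor, ran from 590 over a median of 2318 to 6160 CPM per cell in Plvap-led cells and from 0 over 315 to 3136 CPM in Cldn5-led cells. Its summed level was 2240 CPM in Plvap-led and 393 CPM in Cldn5-led cells, a ratio of 5.69 (5.17 to 6.27). The VEGF co-receptor Nrp1 was at 2478 CPM in Plvap-led and 121 CPM in Cldn5-led cells, the receptor Flt4 at 171 and 42.8 CPM, and Tie1 at 602 and 242 CPM. Tek differed by less than counting error, at 293 against 295 CPM, a ratio of 0.994 (0.791 to 1.24). Across all genes 7.9% were higher and 11.3% lower in Plvap-led cells. Of 9 measured genes in the VEGF and Tie list 4 were higher and 0 lower. Of 18 measured basement membrane genes 8 were higher, among them the heparan sulphate proteoglycan Hspg2, at 962 CPM in Plvap-led and 58.2 CPM in Cldn5-led cells, the collagen Col4a1, at 808 and 254 CPM, and the protease inhibitor Timp3, at 4178 and 874 CPM. The fibronectin gene Fn1 was the 1 lower member, at 19.3 against 757 CPM.

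The 12 genes with the highest ratio in Plvap-led cells were Rbp7, Btnl9, Col13a1, Esm1, Igfbp3, Cd300lg, Gpihbp1, Cd24a, Exoc3l2, Car8, Ednrb and Slc43a3. Rbp7, a retinol-binding protein, was at 1471 CPM in Plvap-led and 2.25 CPM in Cldn5-led cells. The growth factor binding protein Igfbp3 was at 3672 CPM in Plvap-led cells, in 30 of 31, and 34.5 CPM in Cldn5-led cells. Esm1, a secreted proteoglycan, was at 872 and 7.13 CPM in these groups and had a UMI in 23 of the 31. Gpihbp1, which holds lipoprotein lipase on capillary walls, was at 431 and 4.51 CPM. The 12 lowest were Apod, Slc7a1, Ch25h, Atp10a, Ccdc141, Lcn2, Wnt5a, Ccl5, Ndnf, Mfsd2a, Vcam1 and Slc38a3. All Ccl5 UMIs of deep cells lay in 1 cell. Of 17 measured venous genes 15 were lower and 1 higher in Plvap-led cells, where 11.3% of all genes were lower and 7.9% higher. Of 16 capillary genes 10 were lower and 3 higher. The capillary sum went the other way, at 7901 CPM in Plvap-led and 5502 CPM in Cldn5-led cells, a ratio of 1.44 (1.38 to 1.499), and the capillary list led in 28 of the 28 Plvap-led cells outside the deep group. The 3 higher were Rgcc, a cell cycle regulator, at 3408 against 176 CPM, Ivns1abp, at 1162 against 68.3 CPM, and Kdr.

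**Figure D2:**
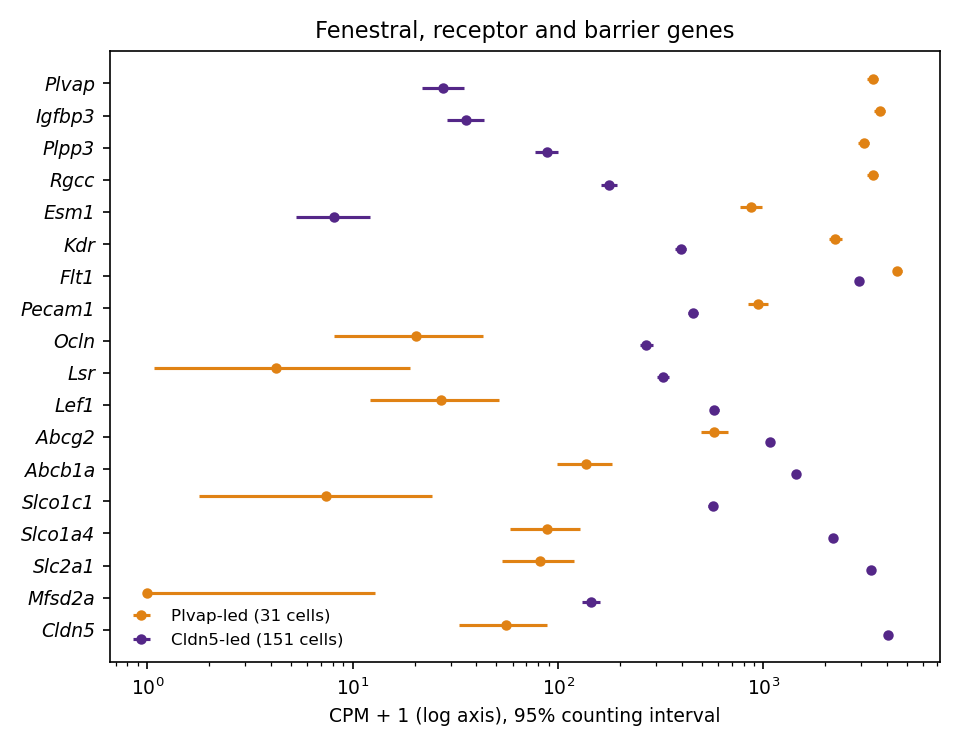
Levels of 18 genes in Plvap-led and Cldn5-led cells, as CPM plus 1 on a log axis, from the summed UMIs of 31 and 151 cells. Plvap, Igfbp3, Plpp3 and Kdr lie to the right in Plvap-led cells, while Cldn5, Slc2a1, Slco1a4 and Lef1 lie to the right in Cldn5-led cells.

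Deep and other endothelial cells were then compared across 3798 genes, of which 3.48% were at least 2-fold higher and 4.56% at least 2-fold lower in deep cells, with a median of -0.07 (log2). Genes of vessel position made the plainest difference. Of 17 measured venous genes 15 were higher and 0 lower in deep cells, with a median of 2.08, and the list summed to 12786 CPM in deep and 3174 CPM in other cells, a ratio of 4.03 (3.89 to 4.18). Of 16 measured capillary genes 9 were lower and 0 higher, with a median of -1.59, and the list summed to 3426 CPM in deep and 9961 CPM in other cells, a ratio of 0.344 (0.333 to 0.355). Of 10 measured arterial genes 4 were lower and 0 higher, with sums of 1810 CPM in deep and 3569 CPM in other cells. The arterial list was higher still in mural cells, at 4980 CPM. The mural rule genes were at 1052 CPM in deep and 1728 CPM in other endothelial cells, and the part of mural RNA in the arterial sums was not tested. The lists were chosen with earlier results of these data known.

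Among venous genes Vwf, the clotting factor carrier stored in endothelial granules (chr6:125546774-125686679, plus strand), ran from 0 over a median of 1310 to 3627 CPM per deep cell and from 0 over 0 to 4365 CPM per other cell. It had a UMI in 36 of 40 deep and 69 of 142 other cells. When every cell was reduced to 1000 UMIs, the expected share with a Vwf UMI was 68.4% in deep and 21.3% in other cells. The summed level of Vwf was 1925 CPM in deep and 361 CPM in other cells, a ratio of 5.34 (4.80 to 5.95). The atypical chemokine receptor Ackr1, a marker of venules, was at 771 CPM in deep and 50.1 CPM in other cells, a ratio of 15.4 (11.7 to 20.7), in 25 of 40 and 12 of 142 cells. Lcn2, an iron-carrier binding protein, was at 988 and 60.4 CPM in these groups. Nr2f2, the transcription factor that sets venous identity, was at 457 CPM in deep and 108 CPM in other cells. Slc38a5, an amino acid transporter of brain veins and capillaries, was at 343 and 109 CPM, and Tmsb10, an actin-binding peptide, at 2170 and 1040 CPM.

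Leukocyte adhesion molecules of the venous list were higher in deep cells too. Vcam1 was at 1319 CPM in deep and 248 CPM in other cells, in 32 of 40 and 20 of 142 cells, and its highest single cell, at 8663 CPM, was an other cell. Icam1 was at 479 and 61.4 CPM in these groups, in 33 of 40 and 24 of 142 cells. The selectin Sele was at 68.4 CPM in deep and 16.1 CPM in other cells. The glycoprotein Lrg1 was at 631 and 90.7 CPM in these groups, and the interleukin-1 receptor Il1r1 at 398 and 94.4 CPM. The venous genes outside the 2-fold limit were the ephrin receptor Ephb4, at 152 against 96.3 CPM, and the prostaglandin synthase Ptgs1, at 47.0 against 74.6 CPM.

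Capillary genes ran the other way. Spock2, a matrix proteoglycan (chr10:60106219-60135198, plus strand), ran from 0 over a median of 390 to 3905 CPM per deep cell and from 0 over 2677 to 13445 CPM per other cell. Its summed level was 640 CPM in deep and 2400 CPM in other cells, a ratio of 0.267 (0.249 to 0.286). Mfsd2a, which carries omega-3 lipids and keeps vesicle traffic low, was at 36.6 CPM in deep and 296 CPM in other cells. Tfrc was at 102 and 433 CPM in these groups, Slc7a1 at 213 and 537 CPM, and the carbonic anhydrase Car4 at 164 and 590 CPM. The chemokine Cxcl12 was at 236 CPM in deep and 1326 CPM in other cells, and 1 deep cell held 42.9% of the deep UMIs. Among arterial genes Gkn3 was at 19.8 and 169 CPM, with a UMI in 11 cells of each group and up to 12095 CPM in a single other cell, and the matrix protein Mgp was at 515 and 1067 CPM. The Mgp sum in other cells rests on few cells: 43 of 142 had a UMI, with a median of 0 and up to 43084 CPM in a single cell, against 30 of 40 deep cells with a median of 183 CPM.

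**Figure D3:**
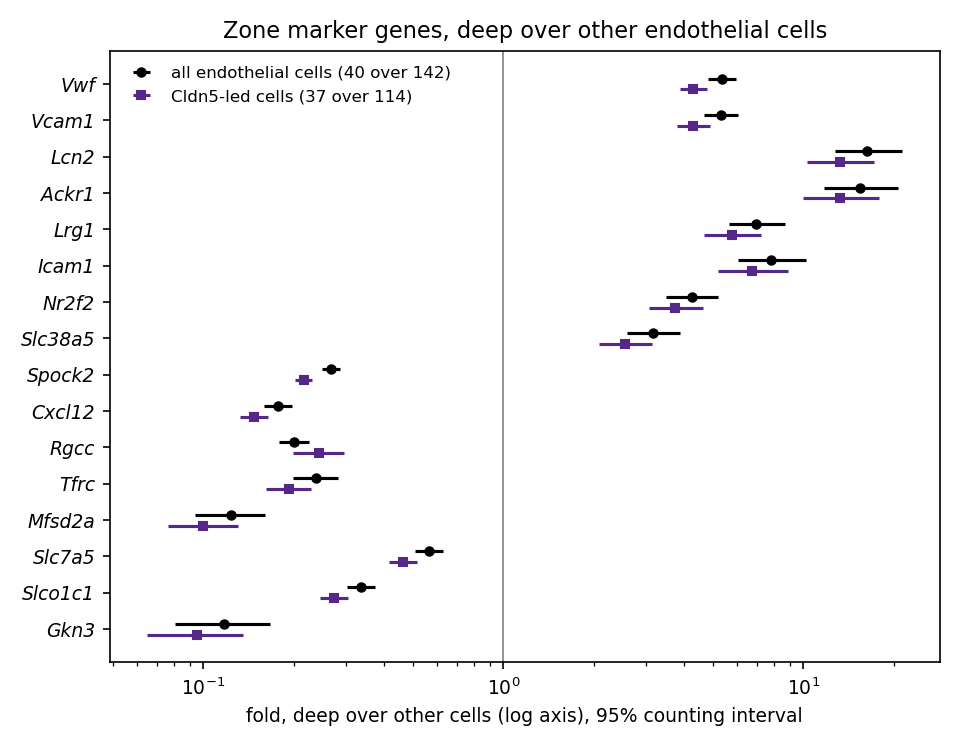
Ratio of deep over other endothelial cells for 16 venous, capillary, arterial and transporter genes on a log axis, with 95% counting intervals, for all cells (40 over 142) and for Cldn5-led cells only (37 over 114). Venous genes such as Ackr1 (15.4) and Vwf (5.34) lie right of 1, and capillary genes such as Spock2 (0.267) and Mfsd2a (0.124) left of it in both sets.

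The shift was present without the Plvap-led cells. Among Cldn5-led cells, 3.56% of 3682 genes were at least 2-fold higher and 3.45% lower in the 37 deep than in the 114 other cells. Of the measured venous genes 14 of 16 were higher there, and 11 of 16 capillary genes were lower. Each Cldn5-led cell was also given the list that held the largest share of its UMIs. In deep cells this was the venous list in 31 of 37 (83.8%, 68.0 to 93.8), the capillary list in 6 and the arterial list in 0. In other cells the capillary list led in 88 of 114 (77.2%, 68.4 to 84.5), the venous list in 16 (14.0%, 8.24 to 21.8) and the arterial list in 10. Few assignments were close: the next list came within 1.5-fold in 5 of the 31 venous and 3 of the 6 capillary deep cells, and in 2 of the 16 venous, 3 of the 88 capillary and 3 of the 10 arterial other cells. Within the venous-led cells the median depth was 52110 UMIs in deep and 7779.5 UMIs in other cells, and within the capillary-led cells 23260.5 and 5005 UMIs. Over the 151 Cldn5-led cells the rank correlation of UMIs per cell was 0.49 with the venous level and -0.59 with the capillary level. All of these cells share a library, and both measures have the cell's UMIs in common.

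**Figure D4:**
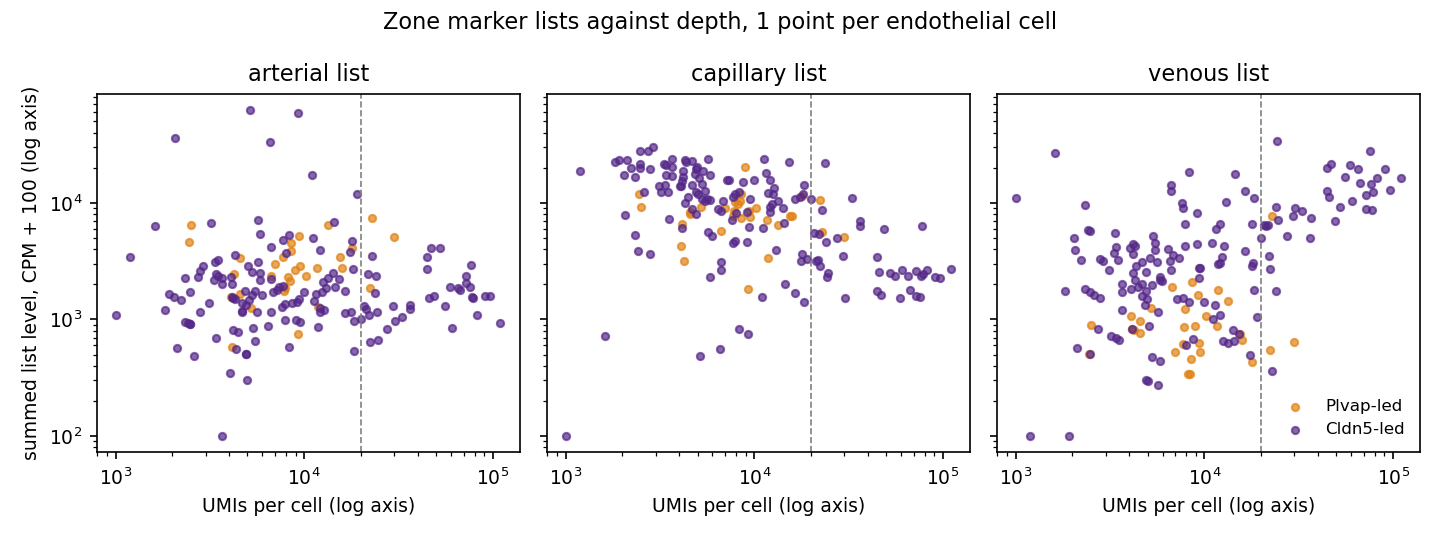
Level of the arterial, capillary and venous lists (y axis, CPM plus 100 on a log scale) against UMIs per cell (x axis, log scale) in Plvap-led and Cldn5-led cells, with a dashed line at 20000 UMIs. Venous levels are high and capillary levels low in most cells to the right of the line.

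Barrier transporters as a group were close to equal in both depths, at 11383 CPM in deep and 12494 CPM in other cells, a ratio of 0.911 (0.892 to 0.931). Of 28 measured members 2 were higher and 6 lower in deep cells, beside 3.48% and 4.56% of all genes, with a median of -0.49 (log2). Slc2a1 was at 3304 CPM in deep and 2464 CPM in other cells, a ratio of 1.34 (1.28 to 1.40). Abcb1a was at 1439 and 1070 CPM in these groups, the taurine transporter Slc6a6 at 1262 and 1101 CPM, and Abcg2 at 1005 and 1053 CPM. Lower in deep cells were Slco1c1, at 297 against 884 CPM, the lipoprotein receptor Lrp8, at 28.7 against 119 CPM, the glutamate transporter Slc1a1, at 39.7 against 115 CPM, and the capillary genes Mfsd2a, Tfrc and Slc7a1. The higher ones were Slc38a5 and the metal transporter Slc39a8, at 172 against 85.0 CPM. The lists of barrier and capillary genes share 8 members: without them the sums were 10102 CPM in deep and 9887 CPM in other cells. Within Cldn5-led cells alone the whole list stood at 11716 CPM in deep and 15315 CPM in other cells. There 1 of 27 was higher and 9 were lower, beside 3.56% and 3.45% of all genes. Per cell, Slc2a1 in Cldn5-led cells had a median of 3095 CPM (1088 to 7124) in deep and 2476 CPM (0 to 12368) in other cells. Abcb1a had medians of 1428 and 1285 CPM in these cells. Plvap-led cells, with 80.5 CPM of Slc2a1 and 135 CPM of Abcb1a, were 3 of the 40 deep and 28 of the 142 other cells.

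Junction genes were level, at 3503 CPM in deep and 3559 CPM in other cells, a ratio of 0.984 (0.946 to 1.02). Ocln was at 242 CPM in deep and 240 CPM in other cells, Lsr at 318 and 241 CPM, and Tjp1 at 849 and 560 CPM. Of 15 measured junction genes 3 were lower in deep cells, beside 4.56% of all genes. These were Jam3, Jup and Gja1, the same 3 that were higher in Plvap-led cells, and 0 of 13 were lower among Cldn5-led cells. In the Wnt list 0 of 20 genes were higher and 1 was lower in deep cells, beside 3.48% and 4.56% of all genes. Lef1 was at 602 CPM in deep and 365 CPM in other cells, Tnfrsf19 at 174 and 95.4 CPM, Foxq1 at 379 and 437 CPM and Axin2 at 86.7 and 100 CPM. Among growth factor receptors the co-receptors differed in opposite directions: Nrp2, the form of veins and lymphatics, was at 412 CPM in deep and 105 CPM in other cells, and Nrp1 at 146 and 768 CPM. Plvap-led cells, 3 of the 40 deep and 28 of the 142 other cells, had a median of 2446 CPM of Nrp1 per cell. In Cldn5-led cells alone the Nrp1 median was 39.2 CPM in deep and 107 CPM in other cells. The phosphatase Ptprb was at 2210 CPM in deep and 1464 CPM in other cells. The BMP targets Id1, at 2364 against 1673 CPM, and Id3, at 1819 against 1727 CPM, stayed within 2-fold. So did Nos3, which makes nitric oxide, at 227 against 153 CPM, and Thbd, which switches thrombin to an anticoagulant, at 315 against 282 CPM.

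Genes of the NF-kB response and of leukocyte adhesion were a further list that was higher in deep cells. NF-kB is a transcription factor held in the cytoplasm by inhibitors such as Nfkbia, which it induces in turn, and inflammatory signals release it. Of 15 measured members 10 were higher and 0 lower in deep cells, beside 3.48% and 4.56% of all genes, with a median of 2.02 (log2). The list summed to 7076 CPM in deep and 2272 CPM in other cells, a ratio of 3.11 (2.98 to 3.25). The 6 members Ackr1, Icam1, Il1r1, Sele, Selp and Vcam1 are also in the venous list, and without them the sums were 4026 and 1802 CPM in these groups.

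Nfkbia ran from 361 over a median of 1204 to 5302 CPM per deep cell and from 0 over 643 to 3960 CPM per other cell. It was found in all 40 deep and 128 of 142 other cells, and the ranges overlapped widely. Summed, Nfkbia was at 1720 CPM in deep and 919 CPM in other cells, a ratio of 1.87 (1.74 to 2.01). Ptgs2, the inducible prostaglandin synthase, was at 682 CPM in deep and 114 CPM in other cells, in 34 of 40 and 14 of 142 cells. The chemokine Cxcl1, which attracts neutrophils, was at 98.2 CPM in deep and 3.78 CPM in other cells, a ratio of 26.0 (9.98 to 96.4) that rests on 15 and 3 cells with a UMI. The cytokine feedback inhibitor Socs3 was at 630 and 183 CPM, and the growth factor Csf1 at 157 and 35.9 CPM.

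Promoters of Nfkbia and Cxcl1 are shown because both genes are in this list and carry the NF-kB letters searched for. The search was for GGGA, then any base, then TTTCC, on both strands in the 300 bases from 250 before to 50 after each gene's start (RefSeq, GRCm38.p6), and capitals mark the match. The Nfkbia window is chr12:55492598-55492897 on the minus strand with the match 29 bases before the start, and the Cxcl1 window is chr5:90890995-90891294 on the plus strand with the match 71 bases before it.
Nfkbia: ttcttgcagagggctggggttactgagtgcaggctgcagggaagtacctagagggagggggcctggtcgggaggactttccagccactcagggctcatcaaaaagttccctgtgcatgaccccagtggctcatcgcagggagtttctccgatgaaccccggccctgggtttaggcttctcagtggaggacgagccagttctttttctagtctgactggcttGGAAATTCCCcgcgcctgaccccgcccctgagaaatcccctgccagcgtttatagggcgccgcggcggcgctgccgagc
Cxcl1: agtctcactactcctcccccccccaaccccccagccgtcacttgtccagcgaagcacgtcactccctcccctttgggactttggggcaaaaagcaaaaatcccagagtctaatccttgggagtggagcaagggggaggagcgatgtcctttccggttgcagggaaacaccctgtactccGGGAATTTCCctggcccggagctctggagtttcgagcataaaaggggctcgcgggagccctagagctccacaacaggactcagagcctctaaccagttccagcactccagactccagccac
The motif was in 6 of the 24 list genes with a promoter in the table (Csf1, Cxcl1, Cxcl2, Il6, Nfkb2 and Nfkbia) and in 135 of all 32851 promoters (0.411%). List members were counted by gene and the background by promoter. The list was picked as NF-kB response and adhesion genes, so a higher share in it follows from that choice. Whether NF-kB acts on these genes here was not tested. Icam1 and Ptgs2 had no such letters in their window. Of the 6, Csf1, Cxcl1 and Nfkbia had the levels given above, Cxcl2 was at 4.70 CPM in deep and 26.4 CPM in other cells, Nfkb2 at 25.6 CPM in deep and 12.3 CPM in other cells, and Il6 had no UMI in any endothelial cell.

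Immediate early genes, which cells switch on within minutes of a stimulus or of handling, were higher in deep cells by a smaller factor. The list summed to 24764 CPM in deep and 15711 CPM in other cells, a ratio of 1.58 (1.55 to 1.60). Of 32 measured genes 8 were higher and 1 lower, beside 3.48% and 4.56% of all genes, with a median of 0.65 (log2). Fos, part of the AP-1 transcription factor, ran from 0 over a median of 1365 to 7183 CPM per deep cell and from 0 over 0 to 9901 CPM per other cell, and its sum was 2305 CPM in deep and 840 CPM in other cells. The survival gene Ier3 was at 1783 and 708 CPM in these groups, the mRNA decay factor Zfp36 at 1348 and 501 CPM, Egr1 at 755 and 306 CPM and Atf3 at 289 and 77.4 CPM. Klf2, the flow-sensing factor of endothelium, stayed within 2-fold in sum, at 3406 CPM in deep and 2718 CPM in other cells. Its median per cell was 3078 CPM in deep and 1533 CPM in other cells, and 3124 and 2052 CPM among Cldn5-led cells alone. Summed over all deep and all other cells, Klf4 was at 944 and 847 CPM and Jun at 2862 and 2239 CPM. Their medians per cell were 791 and 507 CPM for Klf4 and 2480 and 865 CPM for Jun. The lower gene was Ctgf, at 52.2 against 182 CPM. Per cell the list ran from 4559 over a median of 18642 to 52686 CPM in deep cells and from 0 over 8306 to 73267 CPM in other cells, so the ranges overlapped. Among Cldn5-led cells alone the list was at 25229 CPM in deep and 17734 CPM in other cells. There 8 of 31 genes were higher and 1 lower, beside 3.56% and 3.45% of all genes.

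In Cldn5-led cells the response levels given here differed more between venous-led and capillary-led cells than between depths, apart from Lcn2. This is a description, because the venous list that sorted the cells shares 6 genes with the NF-kB list. The NF-kB genes outside the venous list were at 4380 CPM (4280 to 4481) in venous-led deep cells and 4837 CPM (4481 to 5214) in venous-led other cells. In capillary-led cells they were at 1433 CPM (1254 to 1631) in deep and 1299 CPM (1208 to 1395) in other cells, and in arterial-led other cells at 1175 CPM. Per cell they ran from 1014 over a median of 3332 to 10671 CPM in venous-led deep cells, from 527 over 3804 to 11139 CPM in venous-led other cells and from 0 over 1087 to 3827 CPM in capillary-led other cells, so single cells of the zones overlapped. Ptgs2 was at 775 CPM in the 31 venous-led deep and 843 CPM in the 16 venous-led other cells, with a UMI in 31 and 12 of them, against a UMI in 2 of the 6 and 2 of the 88 capillary-led cells of these depths. Socs3 was at 703 and 807 CPM in venous-led and at 93.9 and 56.4 CPM in capillary-led deep and other cells. Immediate early genes were at 26428 CPM in venous-led deep and 30375 CPM in venous-led other cells, against 12618 and 15199 CPM in capillary-led ones. Lcn2 did differ by depth within venous-led cells, at 1125 CPM in deep and 432 CPM in other cells. When the 6 shared genes were also left out of the zone assignment, a choice made after the values were seen, 29 deep and 15 other cells were venous-led, and the NF-kB genes outside the venous list stood at 4456 and 4764 CPM in them. Lcn2 and Lrg1 stayed in the venous list in that assignment. The venous and capillary cells differ in their zone genes by construction, and the 16 and 6 cells of the smaller groups limit these values. Zone, depth and response were all read from the same cells, so whether zone or depth goes with the response was not tested.

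**Figure D5:**
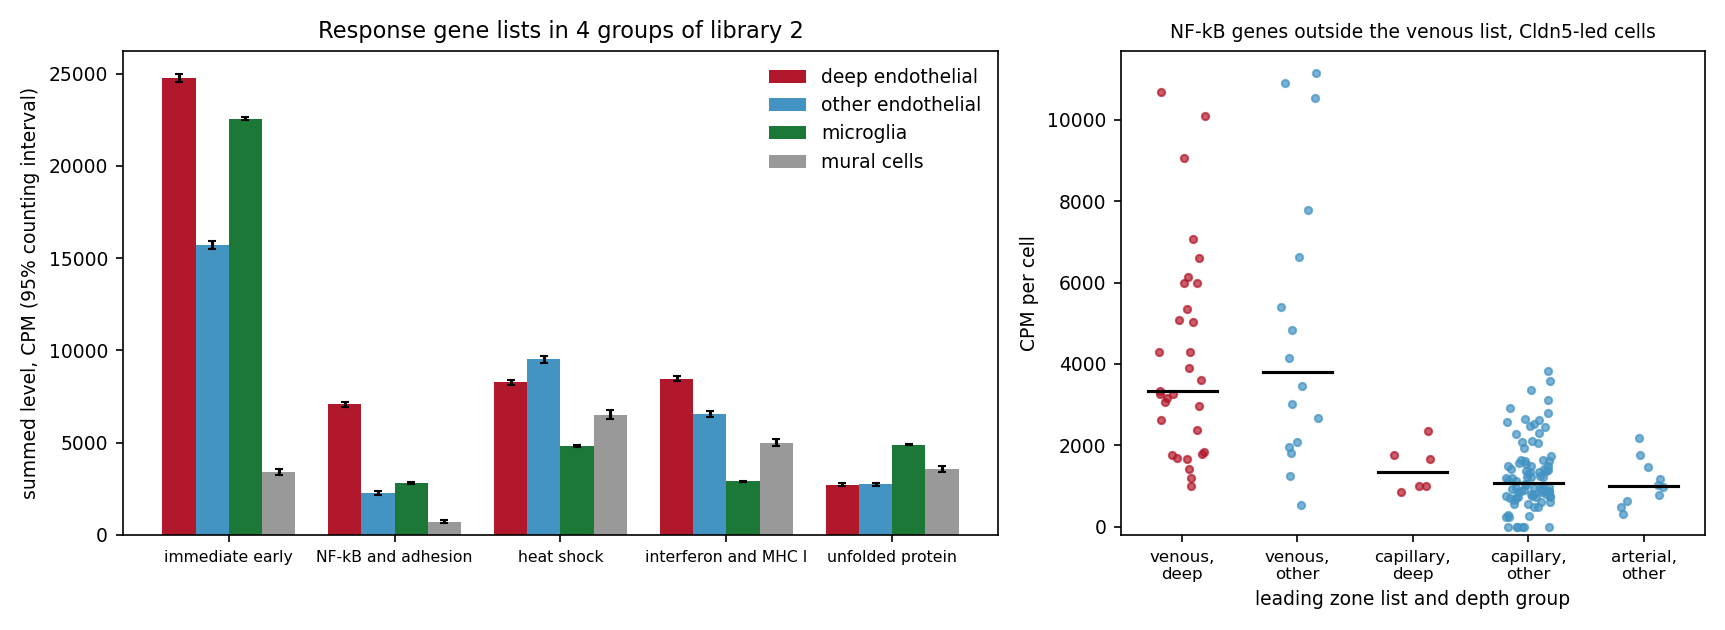
Left, summed level of 5 response lists (CPM, bars from 0 with 95% counting intervals) in deep endothelial, other endothelial, microglia and mural cells. Right, NF-kB genes outside the venous list in each Cldn5-led cell by leading zone list and depth, with the median as a black bar: venous-led deep and other cells have medians of 3332 and 3804 CPM, capillary-led other cells 1087 CPM.

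Further stress lists differed less or in the other direction over all cells. For the counts that follow, 3.48% of all genes were higher and 4.56% lower in deep cells. Heat shock genes were at 8279 CPM in deep and 9527 CPM in other cells, with 0 of 16 higher and 1 lower. The lower gene was the inducible chaperone Hspa1b, at 350 CPM in deep and 773 CPM in other cells. Its neighbour Hspa1a was at 545 and 782 CPM, and the constitutive Hspa8 at 1962 and 2008 CPM. Per cell the Hspa1a median went the other way, at 298 CPM in deep and 95.9 CPM in other cells, with up to 16286 CPM in a single other cell. Genes of the unfolded protein response were at 2716 CPM in deep and 2737 CPM in other cells, with 0 of 14 called in either direction. Interferon and MHC class I genes were at 8469 CPM in deep and 6571 CPM in other cells, a ratio of 1.29 (1.25 to 1.33), with 2 of 24 higher and 2 lower. Their median was -0.16 (log2), opposite in sign to the sum. Among Cldn5-led cells alone the interferon and MHC list was at 8425 CPM in deep and 5920 CPM in other cells, a ratio of 1.42 (1.38 to 1.47), and the immediate early list there had a ratio of 1.42 (1.40 to 1.45). The higher genes were the membrane-bound antiviral proteins Ifitm3, at 2290 against 1135 CPM, and Ifitm1, at 461 against 103 CPM. The lower genes were Ifit1, at 52.7 against 136 CPM, and Rsad2, at 25.1 against 90.7 CPM. The metallothionein Mt1 was at 558 CPM in deep and 379 CPM in other cells. In Plvap-led cells Mt1 was at 16.1 CPM, against 550 CPM in Cldn5-led cells. Between the same groups 11.3% of all genes were lower in Plvap-led cells and 7.9% higher. Of 14 measured NF-kB genes 11 were lower there, with a median of -3.26 (log2), or -2.96 with the 1 gene at 0 set to 3 counts. The NF-kB sums were 1593 and 5806 CPM. Of 32 immediate early genes 2 were higher and 17 lower in Plvap-led cells, with a median of -1.25 and sums of 9784 and 22912 CPM.

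The 12 genes with the highest ratio of deep over other cells were Ccl5, Grem1, Hamp, Hba-a1, Hba-a2, Hbb-bs, Cxcl11, Hbb-bt, Cxcl1, Cd74, Serpina3n and Lcn2, and several rest on few cells. All Ccl5 UMIs of deep cells came from 1 cell, as did 96.6% of those of Cd74 and 73.1% of those of Hbb-bs. Grem1, a BMP antagonist, had UMIs in 15 of 40 deep and 0 of 142 other cells, at 60.6 CPM in deep cells. Hamp, the iron hormone hepcidin, had UMIs in 5 deep and 1 other cell. The acute-phase inhibitor Serpina3n was at 51.2 CPM in deep and 1.89 CPM in other cells, in 13 and 1 cells. The 12 lowest were S100a8, S100a9, Lrrn3, Car8, Esm1, Slc43a3, Gkn3, Cd300lg, Mfsd2a, Plpp1, Ivns1abp and Plvap. Of these, Car8, Esm1, Slc43a3, Cd300lg, Plpp1 and Plvap were 34.0-fold to 128-fold higher in Plvap-led than in Cldn5-led cells, and Plvap-led cells were 3 of the 40 deep and 28 of the 142 other cells. None of these 6 was among the 12 lowest when Cldn5-led cells were compared alone. A single other cell held 97.7% of the S100a8 UMIs of its group. Lrrn3, an adhesion protein, was at 7.31 CPM in deep and 109 CPM in other cells, in 9 and 53 cells.

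Against the remaining classes of the library, response levels were set beside each other in microglia and mural cells. Immediate early genes were at 24764 CPM in deep and 15711 CPM in other endothelial cells, against 22552 CPM in microglia and 3408 CPM in mural cells. Klf2 was at 3406 and 2718 CPM in deep and other endothelial cells, against 299 CPM in microglia and 98.1 CPM in mural cells. Of 24 measured immediate early genes 19 were higher and 0 lower in other endothelial than in mural cells, where 20.3% of all genes were higher and 11.1% lower. Over microglia 7 of 26 were higher and 10 lower, where 23.3% of all genes were higher and 21.9% lower, with a median of -0.56 (log2). Heat shock genes were at 8279 CPM in deep and 9527 CPM in other endothelial cells, against 4814 CPM in microglia and 6519 CPM in mural cells. Barrier transporters were higher in other endothelial cells in 24 of 29 measured genes over microglia, beside 23.3% of all genes, and in 23 of 28 over mural cells, beside 20.3%. The 12 genes that led both comparisons for other endothelial cells were Prom1, Mecom, Sema3c, Sox17, Gkn3, Tmem252, Srarp, Slc38a5, Net1, Abcb1a, Pglyrp1 and Slc2a1. Sox17, an arterial and barrier transcription factor, was at 389 CPM there, against 0.580 CPM in microglia and 1.96 CPM in mural cells. For deep cells the 12 were Ackr1, Tmem252, Lcn2, Net1, Slc38a5, Mecom, Prom1, Lrg1, Ch25h, Adgrg6, Vwf and Sox17.

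RNA of other cell types was low, apart from erythrocyte genes in deep cells, and partly uneven between depths. The 13 further microglia genes summed to 1464 CPM in deep and 2699 CPM in other cells, against 100045 CPM in microglia, and the 11 further mural genes to 294 and 420 CPM, against 7885 CPM in mural cells. Ttr, which choroid plexus epithelium makes in large amounts, was at 315 CPM in deep and 1621 CPM in other cells. Counted per cell, Ttr had a median of 15 UMIs in deep and 11 in other cells, and also 11 in microglia and 11 in mural cells, so its number per barcode was alike while total UMIs were not. Cst3, a member of the further microglia genes, was not alike, with a median of 50 UMIs in deep and 10 in other cells. Haemoglobin and other erythrocyte genes were at 6941 CPM in deep and 256 CPM in other cells. Of the members, 2 deep cells had at least 1% of UMIs from haemoglobin, 1 other cell from S100a8 and S100a9, and 1 deep cell from Ccl5. At 1000 UMIs per cell, the expected share with a Cldn5 UMI was 84.4% in deep and 78.3% in other cells, against 0.558% in microglia. Unreduced, Cldn5 had a UMI in 38 of 40 deep, 115 of 142 other and 46 of 1521 microglial cells. Of the barcodes with the highest doublet scores, 10 were endothelial, of which 4 were deep and 0 Plvap-led. Mural rule genes held at least 0.5% of UMIs in 8 further cells, 0 of them deep. The part of these RNAs in the results above was looked at only through alternatives. These left out the 4 unusual cells, tightened the microglia or mural limit, or removed the highest doublet scores.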

How the data were processed

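Droplet single-cell RNA counts of 2 libraries of adult mouse hippocampus were used. The authors deposited matrices of UMI counts for each gene and barcode, made with Cell Ranger 3.0.1 against GRCm38.p5, per the submitters' processing notes. For the separation of cells from empty droplets the sources give no step. Library totals were 18783691 and 29356086 UMIs for 41605 genes, with a median of 6440.5 UMIs for each kept barcode of library 2. UMIs are not reads, so floors and the intervals of levels and ratios cover counting error in captured molecules only. Intervals of shares of cells cover the drawing of cells, taken as independent.

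Cells were chosen by the rule given above, and microglia and mural cells by its mirror with the same limits. No doublets were removed: the automatic threshold of Scrublet marked 0.0% of barcodes and had not worked, so the barcodes with the highest scores, at the expected share of 5.16%, were removed in an alternative only. UMIs were summed over the cells of a group and scaled to CPM. Ratios of sums carry exact conditional binomial 95% intervals, shares Clopper-Pearson intervals. Calls of 2-fold used log2((CPM + 1)/(CPM + 1)) among genes with at least 50 CPM in either group and 100 UMIs over both. The 21 rule genes were left out against microglia and mural cells, and Plvap and Cldn5 between the cells they lead. Genes at 0 were set against a floor of 3 counts. Detection was compared after thinning each cell to 1000 UMIs in expectation. Named genes were the given markers, the most abundant members of each of 37 lists (552 genes), the 12 highest and 12 lowest between deep and other cells and the 12 leading over microglia and mural cells. Others were named after their values were seen, among them all genes between Plvap-led and Cldn5-led cells. The members and lists were chosen with earlier results of these data known. Gene positions follow GENCODE M21, and promoters RefSeq on GRCm38.p6. The scripts were tested on simulated data. Alternatives changed the limits on UMIs, mitochondrial share, rule genes and depth, the weighting of cells, the pseudocount and the gene filter. Python 3.11.15, numpy 2.4.6, scipy 1.17.1, pandas 2.3.3, scanpy 1.11.5 and matplotlib 3.10.9 were used. Some genes of the lists are not reported here.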

Additional observations from a re-analysis of the deposited data

Results flagged for a closer look

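Endothelial RNA was also found outside the cells described above. In library 1, 6 of 7209 kept barcodes passed the same rule (0.0832%, 0.0305 to 0.181), with 1041 to 6965 UMIs each and 18129 in all. The sum of their mural rule genes was 4027 CPM (3156 to 5063).

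In library 2, 74 barcodes passed the endothelial limits but had over 10% mitochondrial UMIs. Their median was 2601.5 UMIs with a mitochondrial share of 12.8%, and 68 were Cldn5-led and 6 Plvap-led. Per 1000000 non-mitochondrial UMIs, barrier transporters were at 18261 in these barcodes and 13434 in other endothelial cells, capillary genes at 14557 and 10711, venous genes at 3238 and 3413, and immediate early genes at 11528 and 16894. These values were not tested.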

How the results depend on the processing

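Of 140 values recomputed under alternatives, 104 stayed within their interval or within 1.5-fold of the reported count, 35 moved and 1 turned its direction. The log2 ratio of deep over other cells for immediate early genes, 0.66 as reported, stayed positive throughout. It was 0.81 with at most 5% mitochondrial UMIs, 0.73 with at most 20%, 0.70 with endothelial genes at 0.5% of UMIs or more, 0.73 at 1.5% or more, 0.71 without the highest Scrublet scores, 0.71 with deep set at 15000 UMIs and 0.76 at 30000. The log2 ratio for barrier transporters was -0.13 as reported and 0.082 with at most 5% mitochondrial UMIs, which is the turned value. It was -0.22 with at most 20%, -0.076 and -0.38 at the 0.5% and 1.5% endothelial limits, -0.20 and -0.014 with deep set at 15000 and 30000 UMIs, and -0.38 with each cell weighted equally. The 5% limit left 23 cells, 2 of them deep. It gave 32 genes higher and 22 lower in deep cells, and 151 higher and 32 lower in other endothelial than in mural cells. The 1.5% limit left 114 cells, 16 of them deep, with 79 genes higher and 56 lower, and 25 cells had over 30000 UMIs. With no filter on low genes 1293 were higher and 1706 lower in deep cells. The same setting gave 3404 and 3365 for other endothelial cells over microglia and 2809 and 3923 over mural cells. Alternatives chosen after seeing the data gave 0.51 for immediate early genes and -0.39 for barrier transporters without Plvap-led cells, 0.71 for immediate early genes without the 4 unusual cells, and 0.59 and -0.17 with mural genes under 0.25 of the endothelial ones. The cause of the other changes was not tested. No paired analysis was possible because the cells come from 1 library with no groups. With 1 pool of mice, the spread between animals is unknown. Shallower cells miss genes near the floor of 3 counts, which is 1.57 CPM over deep and 2.83 CPM over other cells.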

Other observations

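Further gene lists were compared by depth. Glycolysis and hypoxia genes were at 6696 CPM in deep and 6187 CPM in other endothelial cells, with 0 of 16 called in either direction. Genes that glucocorticoids or metals induce were at 2323 CPM in deep and 2161 CPM in other cells, where Tsc22d3, a glucocorticoid-induced leucine zipper, was at 421 and 551 CPM. Proliferation genes were at 79.4 CPM in deep and 90.7 CPM in other cells. Notch genes were lower in sum, at 924 CPM in deep and 1215 CPM in other cells, a ratio of 0.760 (0.707 to 0.818), with the modifier Lfng at 138 and 60.4 CPM and the target Hes1 at 217 and 389 CPM. Basement membrane genes were at 5624 CPM in deep and 8187 CPM in other cells, a ratio of 0.687 (0.668 to 0.707), with 0 of 18 higher and 3 lower, where 4.56% of all genes were lower. Their median was -0.54 (log2), and the 3 included Hspg2 at 66.3 and 309 CPM. Hspg2 was also higher in Plvap-led cells, which were 3 of the 40 deep and 28 of the 142 other cells. Among Cldn5-led cells alone the basement membrane list was at 5323 CPM in deep and 7341 CPM in other cells. There 0 of 17 genes were higher and 2 lower, beside 3.56% and 3.45% of all genes.

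The labels put neither library in a group, so the 6 endothelial cells of library 1 are given as values only. Their immediate early genes were at 8384 CPM (7104 to 9828), the NF-kB list at 1269 CPM (804 to 1904) and barrier transporters at 9101 CPM (7766 to 10601). Capillary genes were at 6950 CPM and venous genes at 1765 CPM. Cldn5 was at 4523 CPM, Klf2 at 1214 CPM, and Plvap had no UMI in 18129.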
